A study of Salvia dorisiana with 6 samples.

Results

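Expression of 5 transcripts of mitochondrial and primary carbon metabolism was described in *Salvia dorisiana*, a sage whose glandular trichomes make the monoterpene ester methylperillate. They were taken by cluster name from a deposited list of 85 transcripts. These are clust1041 and clust4711 (subunits beta and O of the mitochondrial ATP synthase), clust1810 (mitochondrial malate dehydrogenase), clust2916 (chloroplastic triosephosphate isomerase) and clust2305 (chloroplastic phosphoenolpyruvate/phosphate translocator 2), each named after its BLAST hit. All 5 were found in the list, and 3 of them carry a mitochondrial and 2 a chloroplastic name. No enzyme assay of any of them was used here.

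RNA-seq was made of 1 library each from roots, stem, leaves of 3 size classes (<3 cm, 3–10 cm and >10 cm) and isolated trichomes, 6 tissues in all. The plants were untreated greenhouse plants propagated as cuttings, and no genotype difference is stated between the tissues. The trichomes were detached from apical buds and young leaves and sieved through meshes for their heads, so no leaf library is exactly their source material. The study calls the material a total trichome fraction, not 1 purified trichome type, and its share of non-glandular hairs was not measured here. The leaf libraries were of whole leaves, whose surface bears trichomes. With 1 library per tissue there is no replicate error and no test between tissues could be made. The intervals in parentheses are 95% intervals that cover counting error only, not the variation between plants or preparations. In bulk tissue, fewer cells of a type and less RNA per cell cannot be told apart.

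ATP synthase is the rotary enzyme of the inner mitochondrial membrane that makes ATP from the proton gradient built by respiration. Its beta subunit carries the catalytic sites, and subunit O, also known as the oligomycin sensitivity conferring protein, joins the catalytic head to the stator stalk. Mitochondrial malate dehydrogenase interconverts malate and oxaloacetate in the citric acid cycle. In the plastid, triosephosphate isomerase interconverts dihydroxyacetone phosphate and glyceraldehyde 3-phosphate, and the latter is, with pyruvate, a substrate of the methylerythritol phosphate (MEP) pathway, which supplies the precursors of monoterpenes. The phosphoenolpyruvate/phosphate translocator carries phosphoenolpyruvate from the cytosol into the plastid in exchange for phosphate. Glandular trichomes are known for making large amounts of terpenoids, which draws on the carbon, ATP and reducing power of primary metabolism. The PFAM domains listed for the 5 include the ATP synthase alpha/beta family domain for clust1041, the OSCP domain for clust4711, lactate/malate dehydrogenase domains for clust1810, the TIM domain for clust2916 and the triose-phosphate transporter (TPT) and EamA domains for clust2305.

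Levels are the authors' RPKM, the reads of a transcript scaled by its length and by the mapped reads of its library. From the whole-read steps in these values the library totals were recovered as 3314347 to 19415968 mapped read pairs, called fragments here, with the fewest in trichomes. The study had picked the list from these same libraries, asking for over 1000 RPKM in the trichome library and for a correlation over 0.6 both with the limonene synthase SdLS (clust603) and with the pathway metabolites. A high trichome level of the 5 transcripts was therefore built into the choice, and all 85 listed transcripts had their highest RPKM in trichomes. Close to the first limit, the 2 lowest trichome levels of the list were 1004 RPKM (clust1559) and 1009 RPKM (clust2459), followed by clust4711 with 1015 RPKM. The 4 listed transcripts tied to the methylperillate pathway (clust603, clust1545, clust2459 and clust2833), used as markers of the trichome label, were 8.48- to 14.5-fold higher in trichomes than in leaves <3 cm. As they had passed the same choice, this is not an independent check. The cluster clust603, called SdLS here, was labelled with both SdLS and the eucalyptol synthase SdEuS, so its profile may not be of SdLS alone. Markers of leaf, stem or root cells were not among the listed transcripts, so those labels were not checked.

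The 5 transcripts split into a group of 4 that were abundant in every tissue and 1 that was found mainly in trichomes and was scarce in stem and roots. The ATP synthase subunits, malate dehydrogenase and triosephosphate isomerase stayed at or above 196.7 RPKM in all 6 libraries. The translocator clust2305 was at 1056 RPKM in trichomes, at 63.6 to 98.7 RPKM in the leaf libraries and at 0.644 RPKM in roots. Over the 6 libraries the highest level exceeded the lowest 1.89-fold for clust1041, 2.54-fold for clust4711, 3.25-fold for clust1810, 9.31-fold for clust2916 and 1639-fold for clust2305. The first 3 of these were the 3 smallest ranges of the list, where the median range was 428-fold. Summed over the 5 transcripts, the share of a library's fragments was 0.215% for roots, 0.425% for leaves <3 cm and 0.69% for trichomes.

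**Figure D1:**
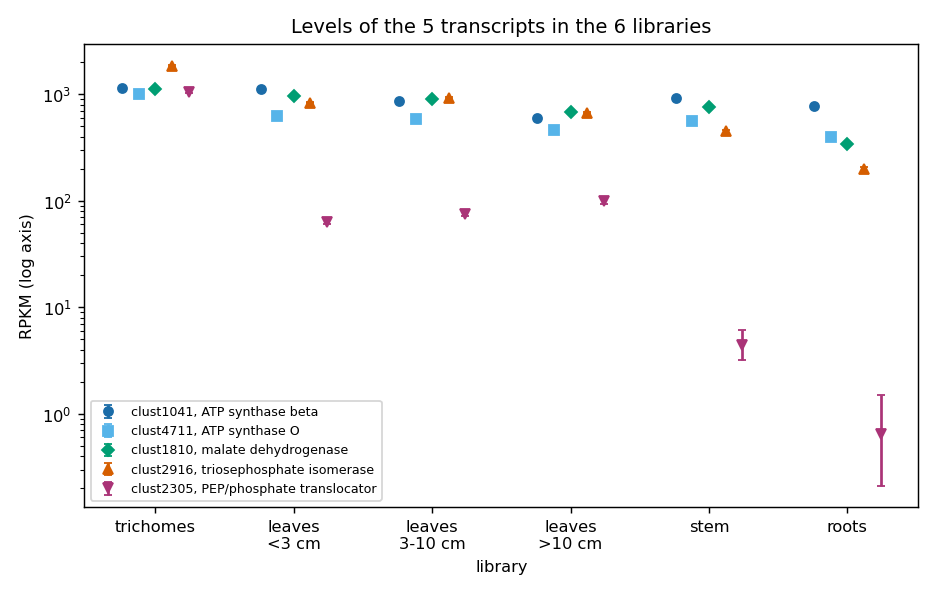
RPKM of the 5 transcripts (log axis) in the 6 libraries, with 1 library per tissue and bars for exact 95% Poisson intervals of counting error, mostly hidden by the symbols. The ATP synthase subunits, malate dehydrogenase and triosephosphate isomerase lie between 196.7 and 1832 RPKM throughout, whereas clust2305 drops from 1056 RPKM in trichomes to 0.644 RPKM in roots.

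The catalytic beta subunit, clust1041, had a recovered coding length of 1677 nt and was the transcript most evenly spread over the tissues. It was at 1132 RPKM in trichomes, 1115 RPKM in leaves <3 cm, 861.9 RPKM in leaves 3–10 cm, 598 RPKM in leaves >10 cm, 914 RPKM in stem and 774 RPKM in roots. Trichomes and the smallest leaves were at the same level within counting error (ratio 1.02, 0.988 to 1.04), and these 2 were the only neighbours in its order of tissues that counting error covered. The largest leaves were lowest, below the roots by 1.29-fold (1.26 to 1.33). Its place in the list by level was 70 of 85 in trichomes and 3 of 85 in both stem and roots, since most listed transcripts fell more steeply.

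Subunit O, clust4711, belongs to the same enzyme but was less even. Its levels were 1015 RPKM in trichomes, 622 RPKM in leaves <3 cm, 579.6 RPKM in leaves 3–10 cm, 462 RPKM in leaves >10 cm, 556 RPKM in stem and 400.1 RPKM in roots. Trichomes stood alone at the top, 1.63-fold (1.56 to 1.71) above leaves <3 cm, and the other 5 tissues lay within 1.56-fold of each other, the smallest range of the list once trichomes were set aside. The order of leaves 3–10 cm over stem was at the edge of counting error (1.04-fold, with an interval that ends at equal levels). Roots were lowest.

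Because both values come from 1 library, the ratio of the 2 subunits does not depend on how a library was scaled. In RPKM, clust1041 exceeded clust4711 1.11-fold (1.07 to 1.17) in trichomes and 1.79-fold (1.75 to 1.84) in leaves <3 cm. In the larger leaves the ratio was 1.49 (1.45 to 1.52) and 1.29 (1.24 to 1.35), against 1.64 (1.58 to 1.71) in stem and 1.93 (1.84 to 2.03) in roots. The beta subunit was thus the more abundant of the pair in all 6 libraries, and the pair was closest to equal in trichomes. From lowest to highest the ratio spanned 1.74-fold, and 1.50-fold among the 5 libraries other than trichomes.

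Mitochondrial malate dehydrogenase, clust1810, followed a falling series in which the roots stood apart. It was at 1111 RPKM in trichomes, 967.5 RPKM in leaves <3 cm, 893 RPKM in leaves 3–10 cm, 687 RPKM in leaves >10 cm, 757.5 RPKM in stem and 342 RPKM in roots. Every pair of neighbours in its order of levels, in which stem came just above the largest leaves, differed beyond counting error, by 1.08- to 1.18-fold per step down to the largest leaves and by 2.01-fold (1.92 to 2.11) from there to roots. Its ratio to clust1041 within a library was between 0.829 in stem and 1.15 in leaves >10 cm in the 5 shoot libraries. In roots that ratio was 0.441 (0.421 to 0.462). The transcripts of malate dehydrogenase and of the beta subunit were thus close to equal in the shoot, and clust1810 was the lower one in roots. Against subunit O, clust4711, it was the higher one in all 5 shoot libraries. There the pair ranged from 1111 against 1015 RPKM in trichomes to 967.5 against 622 RPKM in leaves <3 cm. In roots it was at 342 against 400.1 RPKM.

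**Figure D2:**
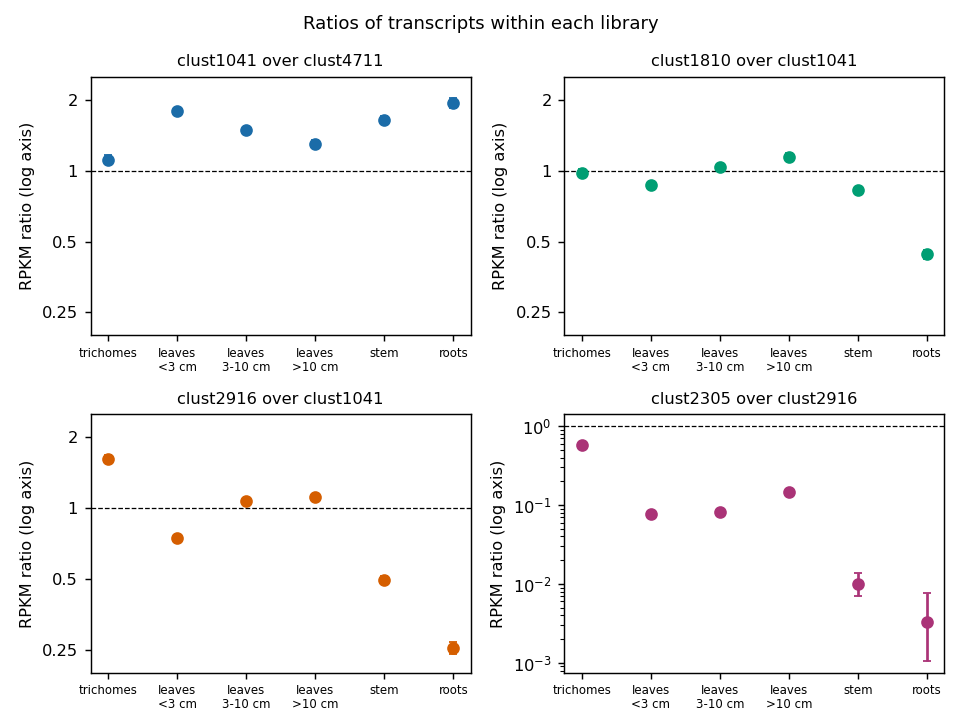
Ratio of RPKM of a pair of transcripts within each of the 6 libraries (log axes, dashed line at a ratio of 1, bars for exact 95% binomial intervals of counting error). The subunit pair clust1041 and clust4711 stays between 1.11 and 1.93, whereas clust2305 over clust2916 spans 176-fold.

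In the plastid, triosephosphate isomerase, clust2916, was the most abundant of the 5 in trichomes and the most graded. It was at 1832 RPKM in trichomes, the median level of the listed transcripts there, 834.5 RPKM in leaves <3 cm, 923.5 RPKM in leaves 3–10 cm, 668 RPKM in leaves >10 cm, 451 RPKM in stem and 196.7 RPKM in roots. All leaf libraries were above stem and stem was above roots, and each step in its order exceeded counting error. Medium leaves, not the smallest, were the highest of the leaf libraries, by 1.11-fold (1.08 to 1.13) over leaves <3 cm. Relative to the ATP synthase subunit clust1041 it was 1.62 (1.56 to 1.68) in trichomes, 0.748 (0.732 to 0.764) in leaves <3 cm, 0.493 (0.474 to 0.513) in stem and 0.254 (0.239 to 0.27) in roots. That ratio covered 6.37-fold over all libraries and 4.40-fold without trichomes.

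The translocator clust2305 was at 1056 RPKM in trichomes, 63.6 RPKM in leaves <3 cm, 74.8 RPKM in leaves 3–10 cm, 98.7 RPKM in leaves >10 cm, 4.47 RPKM in stem and 0.644 RPKM in roots. Among the leaf libraries it was highest in the largest leaves, and trichomes exceeded these 10.7-fold (10.0 to 11.5). It rested on 39 fragments in stem and on 5 fragments in roots, so the root level is known only to between 0.209 and 1.50 RPKM. The step from the smallest leaves to stem was 14.2-fold (10.3 to 20.1), and that from stem to roots 6.94-fold (2.73 to 22.6). Its root level was 0.061% of the trichome level, rank 77 of 85 from the highest, whereas the list's median was 0.234%.

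Set against triosephosphate isomerase in the same plastid, the translocator was at a ratio of 0.577 (0.554 to 0.60) in trichomes. The ratio was 0.0762 (0.0716 to 0.081) in leaves <3 cm and 0.0810 (0.077 to 0.0851) in leaves 3–10 cm, which overlapped, and 0.148 (0.138 to 0.157) in leaves >10 cm. In stem it was 0.00992 (0.00704 to 0.0136) and in roots 0.00327 (0.00106 to 0.00766). The chloroplastic name was therefore shared by transcripts of very different distribution: the isomerase kept 10.7% of its trichome level in roots. In the largest leaves the translocator reached its smallest distance from the isomerase outside trichomes.

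Trichomes were next set against leaves <3 cm, the smallest leaf class. On the log2 scale of RPKM + 1, the ratio was 0.02 for clust1041, 0.20 for clust1810, 0.71 for clust4711, 1.13 for clust2916 and 4.03 for clust2305, and the median of the 85 listed transcripts was 3.35. At least 2-fold higher in trichomes were 2 of the 5 (clust2916 and clust2305), whereas 95.3% of the listed transcripts passed that limit, and 0 of the 5 and 0% of the list were 2-fold lower. The 3 mitochondrial transcripts held places 1, 2 and 4 from the lowest ratio, clust2916 place 5 and clust2305 place 70. Place 3 was taken by clust5140, a chloroplastic peroxiredoxin, at 1020 RPKM in trichomes and 646 RPKM in leaves <3 cm.

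**Figure D3:**
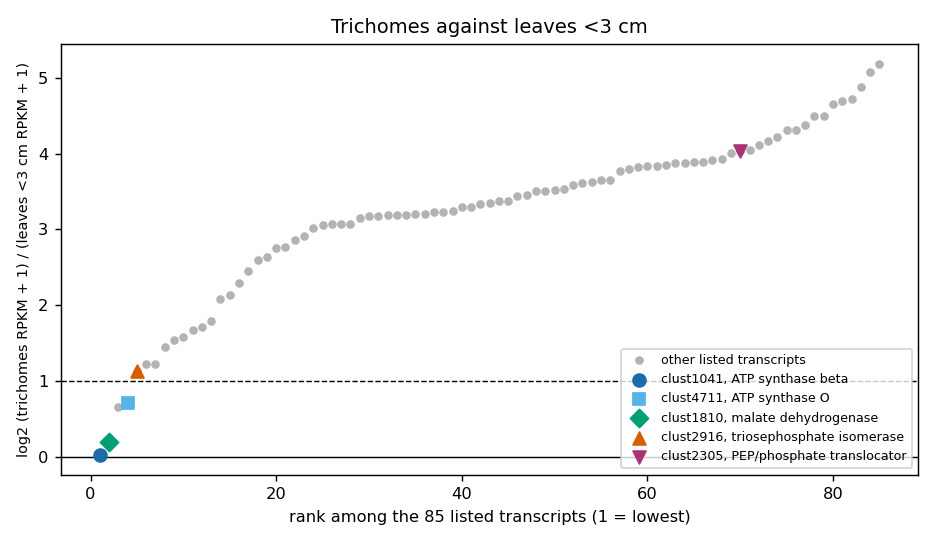
Log2 ratio of trichomes over leaves <3 cm (RPKM + 1) of the 85 listed transcripts, ranked from lowest to highest, with 1 library per tissue. The solid line marks equal levels and the dashed line a 2-fold difference; 4 of the 5 transcripts hold places 1, 2, 4 and 5, and clust2305 lies at 4.03, above the median of 3.35.

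RPKM are shares of a library, and the libraries differed in how much the listed transcripts took: 35.6% of all fragments of the trichome library, against 4.18% for leaves <3 cm and 1.33 to 2.72% for the other 4. Scaled by the fragments outside the list instead, all ratios of trichomes over leaves <3 cm rose by 0.57 on the log2 scale (1.49-fold). The ratio of clust1041 then was 1.51 (1.47 to 1.55) instead of 1.02, that of clust1810 was 1.71 (1.65 to 1.77) and that of clust4711 was 2.43 (2.32 to 2.54), and 3 of the 5 were at least 2-fold higher, against 97.6% of the list. Whether clust1041 was level or higher in trichomes than in small leaves thus depended on the scaling. The order of the 5 among themselves could not change, since every ratio was multiplied by the same factor. The reads had been mapped only to transcripts found in trichomes, so a transcript made only in other tissues entered neither total.

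Against stem, the ratio of trichomes was 1.24 (1.20 to 1.28) for clust1041, 1.47 (1.41 to 1.53) for clust1810, 1.83 (1.73 to 1.93) for clust4711, 4.06 (3.90 to 4.24) for clust2916 and 236 (172.5 to 333) for clust2305. At least 2-fold higher in trichomes were 2 of the 5, against 96.5% of the listed transcripts, and 0 of the 5 were 2-fold lower (0% of the list). Here the scaling by fragments outside the list raised every ratio by 0.61 on the log2 scale, and 4 of the 5 then passed the 2-fold limit, against 98.8% of the list. Stem and trichomes were thus nearest in level for the mitochondrial transcripts and farthest for the translocator.

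Across the leaf size classes, 3 of the 5 fell from the smallest to the largest leaves, 1 rose and 1 peaked in between, each step beyond counting error. Relative to leaves <3 cm, the level in leaves >10 cm was 53.6% (52.4 to 54.9) for clust1041, 71.0% (69.0 to 73.1) for clust1810 and 74.3% (71.3 to 77.4) for clust4711. For clust2916 it was 80.1% (77.7 to 82.5), after 111% (108 to 113) in leaves 3–10 cm. For clust2305 it was 155% (143 to 169), after 118% (109 to 127) in leaves 3–10 cm. Relative to leaves <3 cm, the beta subunit and the translocator thus changed in opposite directions with leaf size. Their RPKM came closer, from 1115 against 63.6 in leaves <3 cm to 598 against 98.7 in leaves >10 cm. Of the listed transcripts 65 fell in this order and 4 rose, with clust2305 among the latter. At least 2-fold lower in leaves >10 cm were 0 of the 5, against 60.0% of the list, and 0 of the 5 and 0% of the list were 2-fold higher. The trichome markers moved with leaf size too: the 4 methylperillate pathway transcripts were at 12.8 to 21.2% of their small-leaf level in leaves >10 cm. Their part in the leaf values of the 5 transcripts was not tested.

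**Figure D4:**
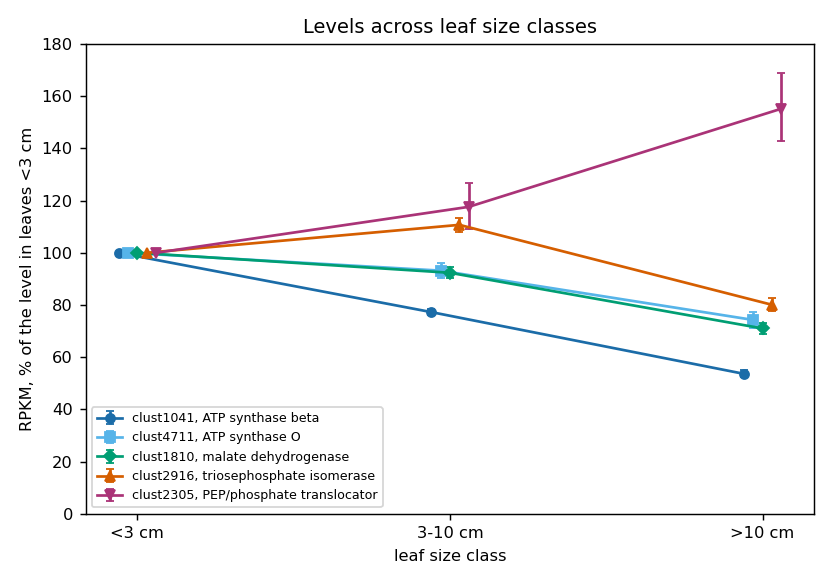
RPKM of the 5 transcripts in 3 leaf size classes as a percentage of the level in leaves <3 cm (1 library per class, bars for 95% binomial intervals of the ratio, lines only join the points of a transcript). At >10 cm clust1041 is at 53.6% and clust2305 at 155%, on opposite sides of the starting level.

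Roots were lower than stem for all 5 transcripts, as for most of the list, where 20 of the 85 were higher in roots. The ratio of roots over stem was 0.848 (0.824 to 0.872) for clust1041, 0.72 (0.68 to 0.762) for clust4711, 0.451 (0.43 to 0.474) for clust1810, 0.437 (0.409 to 0.466) for clust2916 and 0.144 (0.0443 to 0.366) for clust2305. At least 2-fold lower in roots were 3 of the 5, close to the 63.5% of the list that were, so this count says nothing particular about them. The call of clust2305 rests on its 5 root fragments: its log2 ratio was -1.73 with a pseudocount of 1 RPKM and -0.44 with 10 RPKM, which leaves 2 of the 5, against 51.8% of the list. At least 2-fold higher in roots were 0 of the 5, against 10.6% of the list. The ATP synthase subunits showed the least difference between these tissues, and the translocator the most, on few fragments.

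As a share of the trichome level, roots held 68.4% of clust1041, 39.4% of clust4711, 30.8% of clust1810, 10.7% of clust2916 and 0.061% of clust2305. The mitochondrial transcripts held the 3 highest shares of the list and clust2916 the place 15, with a list median of 0.234%. The list had been chosen for a trichome profile, so these are places among transcripts of that kind and not among all transcripts of the plant.

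Other listed transcripts of related function were set beside them. Of primary carbon and energy metabolism, the list also held a chloroplastic fructose-bisphosphate aldolase (clust2220), which cleaves fructose 1,6-bisphosphate into the triosephosphates that clust2916 interconverts, a chloroplastic glucose-6-phosphate isomerase (clust628) and a chloroplastic nucleoside diphosphate kinase (clust5193), which passes phosphate between nucleotides. All 3 were at least 2-fold higher in trichomes than in leaves <3 cm, by 4.40-, 4.25- and 8.43-fold, as were 95.3% of the listed transcripts. The aldolase was at 2858 RPKM in trichomes, 649 RPKM in leaves <3 cm, 383 RPKM in leaves 3–10 cm, 289 RPKM in leaves >10 cm, 644 RPKM in stem and 696 RPKM in roots. Its order differed from that of the isomerase, since roots were above all leaf libraries for clust2220 and below all of them for clust2916.

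The 8 transcripts of the MEP pathway and isopentenyl diphosphate isomerase, a pathway that starts from glyceraldehyde 3-phosphate and pyruvate, were 7.30- to 11.0-fold higher in trichomes than in leaves <3 cm. All 8 passed the 2-fold limit, as did 95.3% of the listed transcripts. The ratio of clust2916 (2.20, 2.13 to 2.26) lay below the range of the 8 and that of clust2305 (16.6, 15.6 to 17.8) above it. In roots the 8 kept 0.167 to 20.1% of their trichome level, a range that takes in clust2916 but not clust2305 or the mitochondrial transcripts. Its low end was isopentenyl diphosphate isomerase (clust3980), on 12 root fragments, and the next lowest was clust2269 with 5.02%. Of 3 listed antioxidant transcripts, a glutathione peroxidase (clust5293), a CuZn superoxide dismutase (clust5995) and the peroxiredoxin clust5140, 2 passed the 2-fold limit. Their ratios were 1.58 to 14.4, and 95.3% of the listed transcripts passed that limit.

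**Figure D5:**
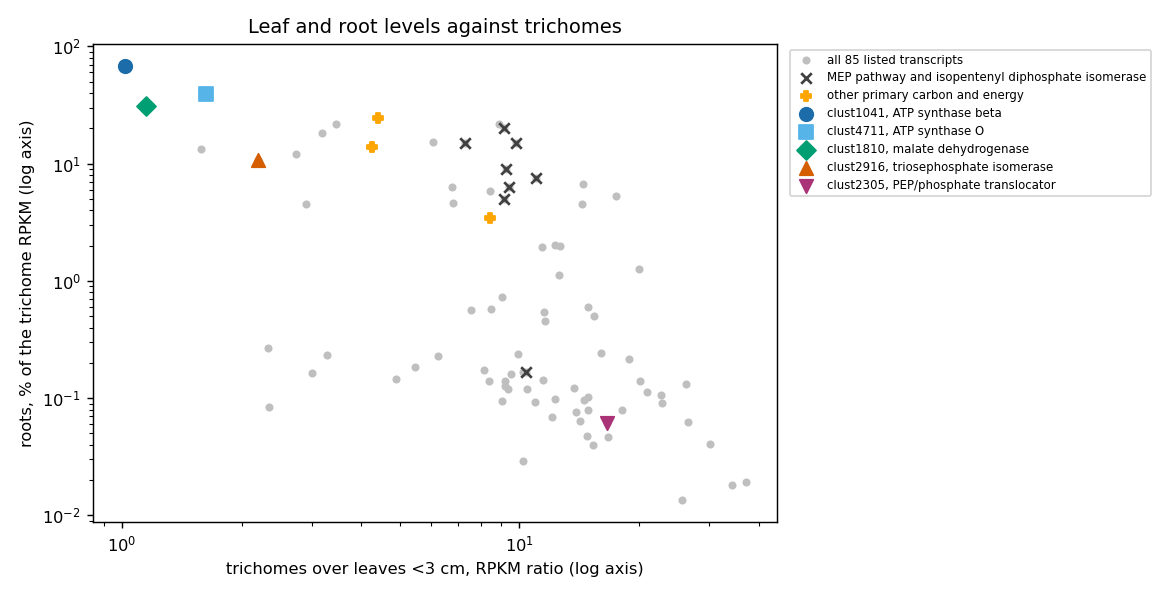
Level in roots as a percentage of the trichome level against the ratio of trichomes over leaves <3 cm, for the 85 listed transcripts (both axes log scales of RPKM, 1 library per tissue; both quantities share the trichome value). The mitochondrial transcripts sit at the upper left, with roots at 30.8 to 68.4% of trichomes, and clust2305 at the lower right, at 16.6-fold and 0.061%.

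As a description over 6 libraries, the Pearson correlation of RPKM with SdLS was 0.601 for clust1041, 0.617 for clust1810, 0.90 for clust2916, 0.943 for clust4711 and 0.995 for clust2305, with a median of 0.999 over the 84 other transcripts. This value was part of the choice of the list, and clust1041 lay just inside its limit of 0.6, with the lowest r of the list, next to clust1810. The trichome library decides much of it: without that library r was 0.832 for clust1041 and 0.274 for clust2305, and the Spearman correlation over the 6 libraries was 0.829 and 0.314. By rank, the translocator followed SdLS least of the 5. SdLS fell from leaves <3 cm to leaves >10 cm, the opposite of clust2305.

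Among themselves, on log2 of RPKM + 1 over the 6 libraries, the 2 plastid transcripts had r = 0.963 and clust1810 and clust2916 had r = 0.933, the highest values of the 10 pairs. Without the trichome library no clear order was left among the highest pairs. There clust1810 and clust2916 (0.942), clust4711 and clust1810 (0.934, against 0.822 with it) and the plastid pair (0.933) were close to equal. The ATP synthase pair had r = 0.762. The least alike were clust1041 and clust2305 (0.33, and -0.05 without trichomes). The shared scaling of a library enters all these values, and the measure takes no account of how far a profile falls.

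By the same measure, the 2 listed transcripts most like each of the 5 were named. For clust4711 they were clust629, a cineole, carene and limonene synthase hit (r = 0.993), and clust2791, a caffeic acid O-methyltransferase hit (0.978). For clust2916 they were a chalcone isomerase hit, clust6044 (0.992), and a phenazine biosynthesis-like protein, clust4414 (0.99). For clust2305 they were a menthol dehydrogenase hit, clust3165 (0.98), and a vinorine synthase-like acyltransferase, clust5317 (0.976), and for clust1810 the wax-related ECERIFERUM 1-like clust458 (0.964) and the 2-alkenal reductase clust3274 (0.956). The values were lower for clust1041, at 0.816 (clust3441, a hit to an uncharacterized protein) and 0.814 (clust2791). Several of these matches rest on the trichome library, in a list chosen for high trichome levels. Without it, clust458 and clust3274 fell to places 27 and 30 among the transcripts most like clust1810, and clust2791 to place 11 for clust4711, while the other 7 stayed within the first 4 places. A high r did not mean a like amplitude: clust629 was at 1368 RPKM in trichomes and 7.48 RPKM in roots, where clust4711 kept 400.1 RPKM. Nor was the direction shared between all tissues for every match. From leaves <3 cm to leaves >10 cm, clust5317 fell from 63.1 to 45.0 RPKM, whereas clust2305 rose from 63.6 to 98.7 RPKM.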

How the data were processed

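RNA of 6 tissues of *S. dorisiana* was sequenced as stranded read pairs on a HiSeq2500 instrument and demultiplexed, for which the submitters' processing notes name CASAVA 1.8.1. The authors mapped the pairs with CLC Genomics Workbench to consensus sequences of clustered trichome open reading frames (600 nt or longer, from PacBio sequencing). A pair was counted once, strand was ignored and a read could match at up to 10 places, so near-identical copies share a value or reads. Values were deposited by the authors as RPKM for 85 transcripts selected on these libraries. The deposited table also holds the authors' correlations with SdLS and with the metabolites, which were not used. It held 0 RPKM columns of other samples. Transcripts outside the list, and sequences, were not used here.

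Samples were grouped by their labels. RPKM were used without a filter on low values (0 values were 0), and ratios are plain RPKM ratios except where log2 of RPKM + 1 is named, a scale on which low transcripts differ less than they do in RPKM. With 1 library per tissue, nothing was tested. Fragments were recovered by searching for library totals and coding lengths (multiples of 3 of at least 600 nt) that make every value a whole count. With coding lengths of 609 to 2961 nt, 510 of 510 values came out whole to within 0.001. The search was revised after earlier versions failed. Tested on simulated data, 5 tables like the real one, the final search found 100% of totals and all fragments of 99.3% of transcripts. True totals could be whole multiples of those found, and the intervals would then be too wide. Levels carry exact Poisson and ratios exact binomial (Clopper-Pearson) 95% intervals. The depth behind a value was 1277 fragments or more for 4 of the 5 transcripts in every library, and 5 to 4169 for clust2305.

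The transcripts, the comparisons, the related lists and the rule for naming the 2 most correlated transcripts were chosen with earlier results of these data known. Alternatives were other pseudocounts (0.1 and 10 RPKM), scaling by the fragments outside the list, a minimum mean of 500 RPKM, leaving out trichomes, and log2 or Spearman correlations. The scripts ran under Python 3.11.15 with scipy 1.17.1, numpy 2.4.6 and pandas 2.3.3.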

Additional observations from a re-analysis of the deposited data

How the results depend on the processing

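Of 99 recomputed values 75 were labelled the same, 22 moved and 2 weaker. That 0 reversed says little, since a pseudocount added to both levels cannot change the sign of a log2 ratio. The counts of transcripts had no label for a reversal either. The scaling by fragments outside the list moved log2 ratios: trichomes over leaves <3 cm went to 0.59 (clust1041), 1.28 (clust4711), 0.77 (clust1810), 1.71 (clust2916) and 4.61 (clust2305). Over stem it gave 0.92, 1.48, 1.17, 2.63 and 8.20 in the same order, and for leaves >10 cm over leaves <3 cm it gave -0.93 for clust1041. A pseudocount of 10 RPKM lowered clust2305 to 3.86 (over leaves <3 cm) and 6.20 (over stem). For roots over stem, clust2305 was at -0.44 with 10 RPKM and -2.62 with 0.1 RPKM, against -1.73, so its 2-fold call was lost at 10 RPKM. Other pseudocounts changed no other 2-fold call of the 5.

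With a mean of at least 500 RPKM, 35 transcripts, 4 of the 5 among them, remained. The 2-fold counts, of 35 instead of 85 transcripts, were then 32 higher in trichomes than in leaves <3 cm (81 without the filter) and 32 higher than in stem (82). Lower in leaves >10 cm were 19 (51). In roots against stem 18 were lower (54) and 5 higher (9). The smaller number of transcripts counted enters each fall, and shares of the 35 were not computed.

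A pseudocount of 1 RPKM reduced the span of clust2305 over clust2916 from 176 to 69.4, since the root value is under 1 RPKM. Without trichomes that span was 45.1, the span of clust1041 over clust4711 was 1.50, that of clust1810 over clust1041 stayed at 2.60 and that of clust2916 over clust1041 was 4.40. The correlation with SdLS fell below 0.6 only for clust2305, by Spearman and without trichomes.

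No paired analysis was possible because each tissue has 1 library and the results come from no test. Depth limits clust2305 in stem and roots; differences between plants cannot be seen with 1 library per tissue.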
